A study of Homo sapiens with 3 samples.

Results

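H3K4me3 peaks that lie between genes were described in ALL-SIL, a human T-cell leukaemia line (T-cell acute lymphoblastic leukaemia, T-ALL). Chromatin immunoprecipitation and sequencing (ChIP-seq) had been carried out once for H3K4me3 and once for H3K4me1, and both were called against the same input DNA library, so there were 3 samples in all. All 3 were from the same line, with no treatment given in the labels, and the chromatin was fixed with formaldehyde and sheared before antibodies to each mark were added. In such bulk chromatin, more of the mark per cell and the mark in more of the cells cannot be told apart. A peak was taken as between genes if it was shorter than 4000 bp, lay on a main chromosome and was more than 1 kb from every protein-coding and lncRNA gene span of RefSeq GRCh38. Of the 11100 H3K4me3 peaks, 620 met this rule, which is 5.59% (exact 95% interval 5.17 to 6.03). They covered 544 kb in all. Their number hangs on the rule, with 1109 if only protein-coding genes kept a peak out and 252 at a −log10 q of at least 10. The name holds only for those gene kinds, since 166 of the 620 lay over a gene of another kind.

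H3K4me3 is laid down around the start sites of active genes, and H3K4me1 marks enhancers and the flanks of promoters. H3K4me3 away from annotated promoters can mark start sites of genes that the chosen annotation leaves aside, such as tRNA genes, small RNA genes and transcribed pseudogenes, or strong enhancers that are themselves transcribed. tRNA genes are read by RNA polymerase III, which also makes U6 snRNA and the Y RNAs. The study's purpose, as far as its design text goes, was to map H3K4me1 in this line.

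The libraries held 30823016 filtered tags for H3K4me3, 34813455 for H3K4me1 and 18859011 for the input. With 1 library per mark there was no replicate error, no value here has a test, and the intervals given are exact (Clopper-Pearson) and cover counting error only. As a check of the cell type, H3K4me3 lay over or within 1 kb of 13 of 15 T-lineage marker genes, with CD2 and PTCRA as the exceptions, against 10701 of 20037 protein-coding genes (53.4%). It lay at 2 of 7 B-lineage markers (CD79B and PAX5), 0 of 7 myeloid and 0 of 4 muscle markers, and 1 of 4 liver (APOA1) and 1 of 4 neuronal (SYP) markers. A further 16 H3K4me3 peaks on unplaced sequences were outside the rule.

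MicroRNA genes are given first, because their products are known base by base. Only 1 of the 1913 microRNA genes in the reference, MIR146B, lay under such a peak, and 7 lay within 1 kb of one. Under any H3K4me3 peak lay 122 of the 1913 (6.38%). Of these 122, 105 lay under peaks at gene ends, 7 under peaks in gene bodies and 9 under peaks of at least 4000 bp. Of the 620 peaks, 0.161% covered a microRNA gene, against 1.06% of all H3K4me3 peaks on the main chromosomes. The rule leaves out peaks at or inside protein-coding and lncRNA genes, so this low share is in part built in. The mature forms of MIR146B and of the MIR301B and MIR130B pair are printed because 1 peak overlaps MIR146B and 1 ends within 1 kb of the pair. They are from RefSeq (GRCh38.p14), 5′ to 3′, with the seed (bases 2 to 8) in capitals.
hsa-miR-146b-5p: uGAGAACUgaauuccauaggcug
hsa-miR-146b-3p: gCCCUGUGgacucaguucuggu
hsa-miR-301b-3p: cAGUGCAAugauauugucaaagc
hsa-miR-130b-3p: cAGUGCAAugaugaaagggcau
hsa-miR-130b-5p: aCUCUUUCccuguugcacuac

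miR-146b-5p is a known brake on Toll-like receptor and NF-kappaB signalling. Its gene ends 4 bp past a peak of 795 bp on chromosome 10 from 102435786 to 102436580 (GRCh38), 3212 bp from CUEDC2. That peak had a pileup, the mean coverage by extended fragments, of 27.76 and a fold of 9.72 over the local background, both set by the authors' caller. H3K4me1 covered 10.1% of it and lay on both sides within 2 kb. miR-146a-5p shares the seed of miR-146b-5p, and the nearest H3K4me3 peak to MIR146A was 45924 bp away with a pileup of 2.51. miR-301b-3p and miR-130b-3p share a seed with each other and lie side by side on chromosome 22, 99 bp and 422 bp from the end of a peak of 1616 bp from 21651267 to 21652882. Its pileup was 9.64 and its fold 3.80, and no H3K4me1 peak overlapped it. That peak lay over an end of the transcribed pseudogene LOC107985532 and over neither microRNA gene. The other microRNA genes within 1 kb were MIR6080 (130 bp), MIR4710 (369 bp), MIR12124 (701 bp) and MIR4425 (765 bp).

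Peaks between genes were mostly short, and their median coverage was close to that of other H3K4me3 peaks. The median length was 697.5 bp (quartiles 389.75 and 1145.25) for peaks between genes, against 1458 bp at gene ends and 965 bp inside gene bodies, all under the same limit of 4000 bp. A length under 500 bp was found for 34.2% of peaks between genes (212), against 4.74% of peaks at gene ends and 22.8% inside gene bodies. The median pileup was 12.7 (quartiles 8.67 and 18.2) for peaks between genes, against 13.5 at gene ends and 13.3 inside gene bodies. Their median fold was 4.22, against 4.55 and 4.46. A −log10 q of at least 10 was reached by 252 of the peaks between genes (40.6%, 36.8 to 44.6), close to the 43.5% of all 11084 H3K4me3 peaks on the main chromosomes. Across the 620 peaks, length and pileup ran nearly independently of each other (Spearman's rho 0.04, within 1 library, so that all points share its depth).

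**Figure D1:**
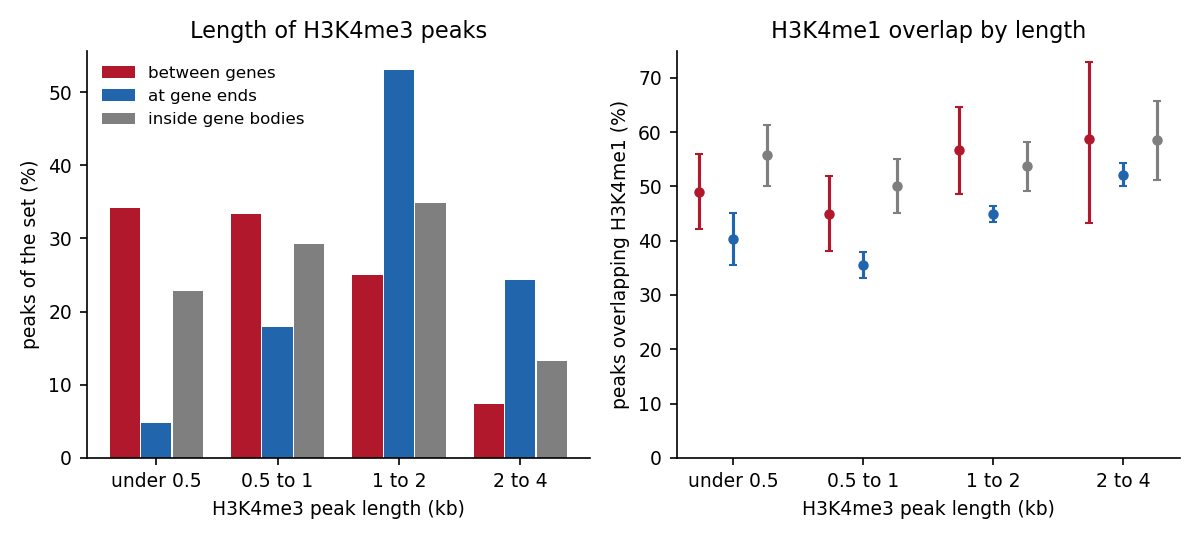
Left, share of each set of H3K4me3 peaks (%) by peak length (kb), and right, share of each length class that overlaps an H3K4me1 peak (%), with exact 95% intervals, for peaks between genes (red), at gene ends (blue) and inside gene bodies (grey). Peaks between genes were shorter, with 34.2% under 0.5 kb against 4.74% at gene ends and 22.8% inside gene bodies. Their H3K4me1 overlap was 44.9% to 58.7% across the length classes.

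The limits of the rule cut through a sparse region of lengths. The longest peak kept had 3951 bp and lay 1004 bp past the 3′ end of CDKN2C, a cyclin-dependent kinase inhibitor gene, with a pileup of 13.99. It was also the peak nearest to a gene. The 2 peaks left out for length had 7061 bp, near PTMA, and 12755 bp, near TARP in the T cell receptor gamma locus. At the distance limit, peaks of 1016 bp from SECTM1 and 1020 bp from PER1 were inside, and those of 957 bp from RWDD2B and 917 bp from TRIM71 were outside.

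Most of these peaks lay within 50 kb of a gene. The median distance to the nearest protein-coding or lncRNA gene was 10487.5 bp (quartiles 4476 and 22515.25), and it was 18859 bp for the set of 1109 peaks kept with protein-coding genes alone. Within 5 kb lay 172 peaks (27.7%), a further 129 (20.8%) within 10 kb and 261 (42.1%) from 10 to 50 kb. From 50 to 100 kb there were 42, and 16 (2.58%, 1.48 to 4.16) were beyond 100 kb. The nearest gene was protein-coding for 357 peaks and an lncRNA gene for 263, and 576 distinct genes were named. That nearest gene itself had H3K4me3 at an end in 268 cases (43.2%), against 32.7% of all 38340 protein-coding and lncRNA genes. By kind it was 58.3% of the 357 protein-coding ones, against 49.4% of all such genes, and 22.8% of the 263 lncRNA ones, against 14.4%. For the 434 peaks whose nearest gene had a strand in the promoter table, 203 (46.8%) lay on its upstream side and 231 on its downstream side. Distance and pileup were nearly unrelated across the 620 peaks (rho −0.05).

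**Figure D2:**
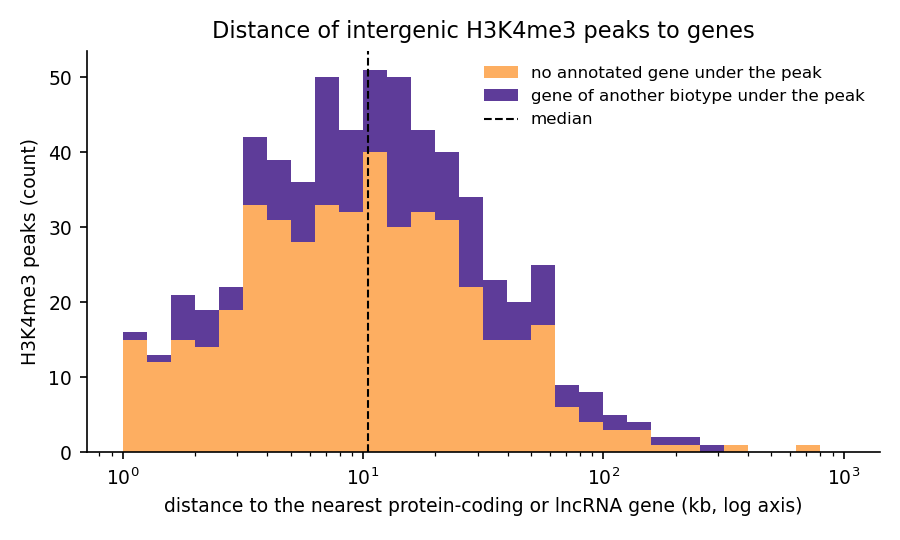
Number of H3K4me3 peaks between genes by distance to the nearest protein-coding or lncRNA gene (kb, log axis), stacked by whether a gene of another kind lay under the peak (purple) or no annotated gene did (orange). The dashed line is the median of 10487.5 bp, and 16 peaks lie beyond 100 kb.

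Peaks far from genes reached pileups well above the median of 12.7. The most distant one lay 771687 bp from LINC02429 on chromosome 4 (59818646 to 59819049), with a pileup of 28.0 and a fold of 12.6. It had no H3K4me1 over it or within 2 kb. The next, on chromosome 3 (162599000 to 162600008), was 381715 bp from LOC107986049, with a pileup of 26.4, H3K4me1 on both sides and 48.8% of its length covered. The third lay 260294 bp from LOC105374862 inside the immunoglobulin kappa locus (pileup 15.9), the fourth 250638 bp from LOC124901941 on chromosome 8 (26.2) and the fifth 215323 bp from LOC124905938, over the pseudogene LSP1P4 (12.0). Of these 5, only the peak on chromosome 3 had H3K4me1 over it. Over the 16 peaks beyond 100 kb the median pileup was 16.25, and 5 overlapped H3K4me1.

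Most of the peaks had no other H3K4me3 peak within 5 kb. The same distance was not taken for the other H3K4me3 peaks, so these values are a description only. The next H3K4me3 peak was at a median of 25331.5 bp, and it was at a gene end for 446 peaks (71.9%) and also between genes for 115 (18.5%). Within 5 kb of another H3K4me3 peak lay 76 (12.3%), and within 1 kb 9. With gaps of up to 20 kb, 529 peaks stood alone and 91 fell into 42 runs, of which 37 held 2 peaks, 3 held 3 and 2 held 4.

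The longest run, with 4 peaks in 31218 bp on chromosome 10 (72297514 to 72328731), lay between DDIT4, an inhibitor of mTOR signalling induced by stress, and the co-chaperone gene DNAJB12. Its pileups were 16.6, 16.5, 25.9 and 17.6 from left to right. All 4 overlapped H3K4me1 and had it on both sides. The runs of 3 were at HMGN4 on chromosome 6, near LOC101926935 on chromosome 20 and near LOC105374297 on chromosome 3, the last with pileups of only 7.60 to 9.25.

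Over 1 in 4 of the peaks lay on a gene of another kind. An overlap with such a gene was found for 166 of the 620 (26.8%, 23.3 to 30.4), against 5.05% of all H3K4me3 peaks on the main chromosomes, 3.76% of peaks at gene ends and 2.84% inside gene bodies. The rule itself assigns peaks near protein-coding and lncRNA genes elsewhere first, so this contrast is in part built in. The share was 8.39% when at least 50% of the gene had to lie under the peak. By what lay under them, with each peak put in 1 class, there were 31 peaks over tRNA genes, 9 over other RNA genes, 11 in antigen receptor loci, 101 over transcribed pseudogenes, 13 over other pseudogenes, 1 under the entry for the PCDHB protocadherin cluster, and 454 over none.

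**Figure D3:**
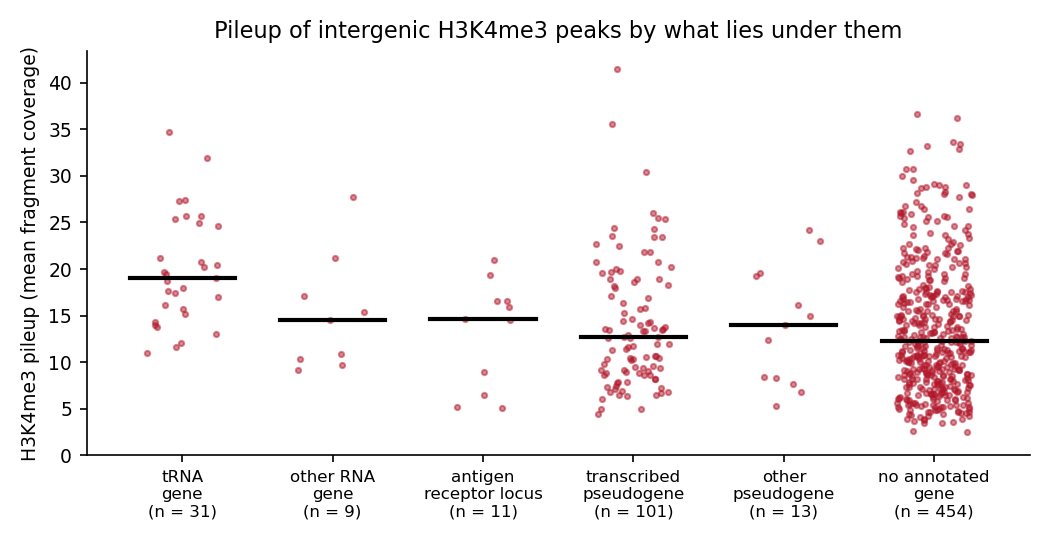
H3K4me3 pileup (mean fragment coverage) of each peak between genes, by what the annotation has under it, with 1 point per peak and a bar at the median. Peaks over tRNA genes had a median of 19.0, and the other classes drawn lay between 12.3 and 14.7, while the class of 1 peak (PCDHB cluster) is not drawn.

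Peaks over tRNA genes had the highest median pileup of the classes with more than 1 peak. The 31 peaks (5.00% of 620, against 0.713% of all H3K4me3 peaks on the main chromosomes) covered 41 tRNA genes, of which 10 peaks held 2 each. Their median pileup was 19.0 (quartiles 15.5 and 24.8, lowest 11.0, highest 34.7), against 12.3 (8.27 and 17.5) over the 454 peaks with no annotated gene. A −log10 q of at least 10 was reached by 25 of the 31 (80.6%, 62.5 to 92.5), against 172 of the 454 (37.9%, 33.4 to 42.5). They were also longer, with a median of 1218 bp against 577.5 bp.

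The strongest tRNA peak lay over TRR-CCG1-3, an arginine tRNA gene, on chromosome 16 (3149955 to 3151092), with a pileup of 34.7 and the highest fold of all 620 peaks, 14.4. H3K4me1 covered 62.3% of it. A second peak, over the proline tRNA gene TRP-TGG3-3, lay on the same chromosome from 3158303 to 3159483, with a pileup of 20.2. On chromosome 11 (76235032 to 76236707) 1 peak of 1676 bp held TRP-AGG2-4 and TRP-TGG2-1, both for proline, with a pileup of 32.0 and a fold of 13.7, and H3K4me1 covered all of it. Both genes themselves lay in H3K4me1, as did 5 of the 41 in all.

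The next strongest tRNA peaks were over TRQ-CTG1-2 for glutamine (pileup 27.5, chromosome 6), TRL-CAG2-1 and TRL-CAG2-2 for leucine (27.25, chromosome 16) and TRF-GAA1-4 for phenylalanine (25.7, chromosome 12). TRI-TAT2-1 for isoleucine (25.65, chromosome 2), TRT-CGT4-1 for threonine (25.4, chromosome 17), TRS-AGA2-4 for serine (24.9, chromosome 6) and TRI-AAT5-2 for isoleucine (24.7, chromosome 6) followed. The tRNA genes lay at a median of 280.5 bp from the middle of their peak and at most 702.5 bp, and some were at its edge, such as TRL-CAG2-2, 636.5 bp from the middle of a peak of 1208 bp.

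The 41 genes served 17 acceptor kinds, counting the initiator methionine tRNA apart. Under these peaks lay 5 of the 20 proline and 5 of the 32 leucine tRNA genes, and 3 each for alanine, isoleucine, lysine and threonine. None of the 29 cysteine, 13 tyrosine, 11 elongator methionine and 7 tryptophan tRNA genes lay under such a peak. Of the 443 tRNA genes in the reference, 110 (24.8%, 20.9 to 29.1) overlapped any H3K4me3 peak: 41 under peaks between genes, 59 under peaks at gene ends, 5 under peaks in gene bodies and 5 under peaks of at least 4000 bp. tRNA copies are near-identical, so reads can be hard to place among them, and the sources used here do not give how the authors' aligner treated them.

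Of the 31 tRNA peaks, 10 were on chromosome 6 and 6 on chromosome 1. A stretch with clustered tRNA and histone genes, from 26 to 29 Mb of chromosome 6, was chosen after its values were seen. It held 21 peaks between genes, 9 of them over a tRNA gene. It also holds 144 of the 443 tRNA genes in the reference, so 9 of the 31 tRNA peaks there is no excess over the share of the genes. The strongest peak between genes in the stretch, of pileup 33.6 and 4690 bp upstream of HMGN4, covered no annotated gene. By chromosome, the share of H3K4me3 peaks that lay between genes was 7.87% on chromosome 6 (49 of 623), 7.92% on chromosome 7 and 8.24% on chromosome 10, against 3.30% on chromosome 11, 3.34% on chromosome 4 and 3.43% on chromosome 2. Chromosome Y, with 3 of only 14 peaks, had 21.4% (4.66 to 50.8).

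RNA genes other than tRNA genes, most of them small, were under 9 peaks. RNY5 and RNY3, which make Y RNAs and lie close together on chromosome 7, had peaks of pileup 14.6 and 10.4. TERC, the RNA template of telomerase, had a peak of 1062 bp on chromosome 3 (169764050 to 169765111) with a pileup of 9.13 and a fold of 4.20, 1810 bp from ACTRT3. SCARNA2, which guides modification of spliceosomal RNA, had one of pileup 17.1 and fold 7.77 on chromosome 1. The U6 genes RNU6-7 and RNU6-8 shared 1 peak of 3230 bp on chromosome 14 (32200910 to 32204139) with a pileup of 10.9. The remaining ones were MIR146B, described above, the U1 variant gene RNVU1-3 (9.67), the snoRNA gene LOC124900196 (21.2) and LOC102723564 (15.4). Of the 9 peaks 2 overlapped H3K4me1, at MIR146B and RNY3, and none had its middle inside it.

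Transcribed pseudogenes, for the most part copies of genes that still yield RNA, made up the largest annotated class. The class follows the labels of the reference, which also place ORAI1 in it (chromosome 12, pileup 10.31). A transcribed pseudogene was overlapped by 103 of the 620 peaks (16.6%, 2 of them placed in a class above), against 1.96% of all H3K4me3 peaks on the main chromosomes. The peaks lay at the ends of these genes: among 94 pairs of a peak and a transcribed pseudogene of at least 10 kb, 83 (88.3%, 80.0 to 94.0) had an end of the pseudogene within 1 kb, and 0 had both ends. Some of these pairs share a peak, so they are not independent, while the interval takes them as independent. The reference table gives no strand for pseudogenes, so which end of the pseudogene lay near the peak is not known here. The median pileup of the class was 12.7 and its median length 1082 bp.

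RAET1K, a pseudogene of the family of NKG2D ligands, carried the peak of highest pileup of all 620, 41.5 with a fold of 10.6, on chromosome 6 (150004739 to 150005485). H3K4me1 covered all of it. SMG1P2, a copy of the RNA surveillance kinase gene SMG1, held 2 peaks on chromosome 16, of which the stronger had a pileup of 35.6 and lay 18279 bp from the nearer end. RPL32P3 had 30.45, RABGEF1P1 25.97 and PDPR2P 25.47, each with the peak across an end of the pseudogene. SUZ12P1, a copy of the Polycomb gene SUZ12, held 2 peaks with pileups of 13.43 and 11.45. Pseudogenes resemble their parent genes, so a read from one may have been placed at the other, and the settings that bear on this were not found in the labels or file headers. Among other pseudogenes the strongest peaks were over THA1P (24.1), TPM4P2 (22.98) and HNRNPCP4 (19.5).

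In the antigen receptor loci 11 peaks lay outside protein-coding and lncRNA genes. Of these, 8 covered a V segment, the exon that is joined to other receptor segments in lymphocytes. That is 1.29% of the 620, against 0.117% of all H3K4me3 peaks on the main chromosomes (13), and 15 of the 248 V segments in the reference had H3K4me3 over them. In the T cell receptor alpha and delta locus, TRAV22 had a pileup of 21.0 and a fold of 8.50, and TRDV1 14.5 and 5.14. In the beta locus, TRBV7-9 and TRBV18 had pileups of 16.6 each, TRBV7-2 8.97 and TRBV7-4 5.08, and 1 peak with no segment under it had 5.20. TRGV9 of the gamma locus had 6.51. In the immunoglobulin loci there were 3 peaks, at IGHV3-64D (19.3), elsewhere in the heavy chain locus (14.7) and in the kappa locus (15.9).

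The local background at some of these was high. The caller's expected background, computed here from the pileup and fold of each peak, was 6.43 at TRBV18, 5.93 at IGHV3-64D, 5.19 at the other heavy chain peak and 4.42 at TRBV7-9, against a median of 1.95 over the 620 peaks. The level expected from the input depth alone was 1.31. Its part in these peaks was not tested.

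H3K4me1 overlapped these peaks in a share near that of all H3K4me3 peaks, and it lay over their middle in a larger share. An H3K4me1 peak overlapped 312 of the 620 (50.3%, 46.3 to 54.3), against 46.8% of all H3K4me3 peaks on the main chromosomes, 44.8% at gene ends and 53.8% inside gene bodies. With H3K4me1 over at least 50% of its length the share was 31.6%, and it was 9.35% when H3K4me1 peaks had to reach 5 in −log10 q. Shares under these stricter limits were not taken for the other H3K4me3 peaks, so they are a description only. The middle of the peak lay inside H3K4me1 for 197 (31.8%), against 11.7% of all H3K4me3 peaks, 7.79% at gene ends and 28.2% inside gene bodies. H3K4me1 lay within 2 kb on both sides of 333 peaks (53.7%, against 59.4% of all), on a single side of 141 and near neither edge of 146 (23.5%, against 11.1% at gene ends). The 325 H3K4me1 peaks at these places had a median length of 2025 bp, against 1020 bp for the whole H3K4me1 list. A longer H3K4me1 peak is more likely to overlap any place, so this contrast is in part built in. Where H3K4me1 overlapped a peak between genes, the median share of it covered was 100%, and 179 peaks were covered entirely. Short peaks are covered entirely more readily, and full cover was not counted for the other H3K4me3 peaks.

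**Figure D4:**
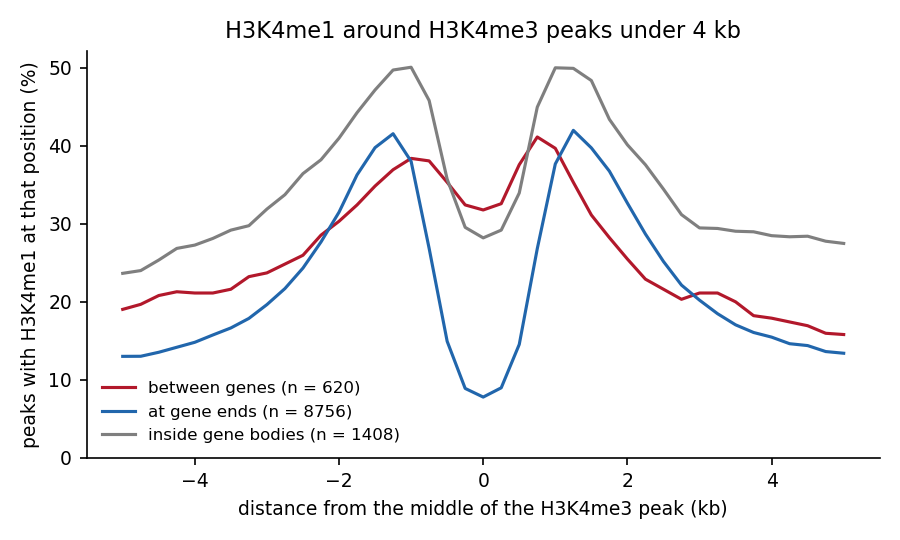
Share of H3K4me3 peaks under 4 kb (%) with an H3K4me1 peak at each distance from the peak's middle (kb), for peaks between genes (red), at gene ends (blue) and inside gene bodies (grey). At the middle the share was 31.8% for peaks between genes, against 7.79% at gene ends, while at 1 kb on the right it was 39.7% against 37.7%.

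The share at the middle was lower in longer peaks, and within length classes it was higher for the peaks with no annotated gene than at gene ends. Among peaks of 1000 to 2000 bp, the middle was inside H3K4me1 for 27 of 82 peaks between genes with no annotated gene (32.9%, 22.9 to 44.2), against 4.55% (3.97 to 5.19) of 4640 peaks at gene ends and 13.9% of 490 inside gene bodies. Among peaks of 500 to 1000 bp it was 34.8% (27.5 to 42.7) of 161, against 16.4% (14.6 to 18.4) of 1570 at gene ends and 36.3% of 411 inside gene bodies. Under 500 bp it was 47.1% of 189, against 34.9% at gene ends and 52.3% inside gene bodies. From 2000 to 4000 bp it was 2 of 22 (9.09%, 1.12 to 29.2), against 3.19% (2.49 to 4.03) at gene ends and 6.45% inside gene bodies. In that longest class the intervals overlapped. Over transcribed pseudogenes the shares were 4.55% of 44 peaks of 1000 to 2000 bp and 15.6% of 32 peaks of 500 to 1000 bp, beside 4.55% and 16.4% at gene ends. Over tRNA genes it was 3 of 17 peaks of 1000 to 2000 bp (17.6%, 3.80 to 43.4).

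**Figure D5:**
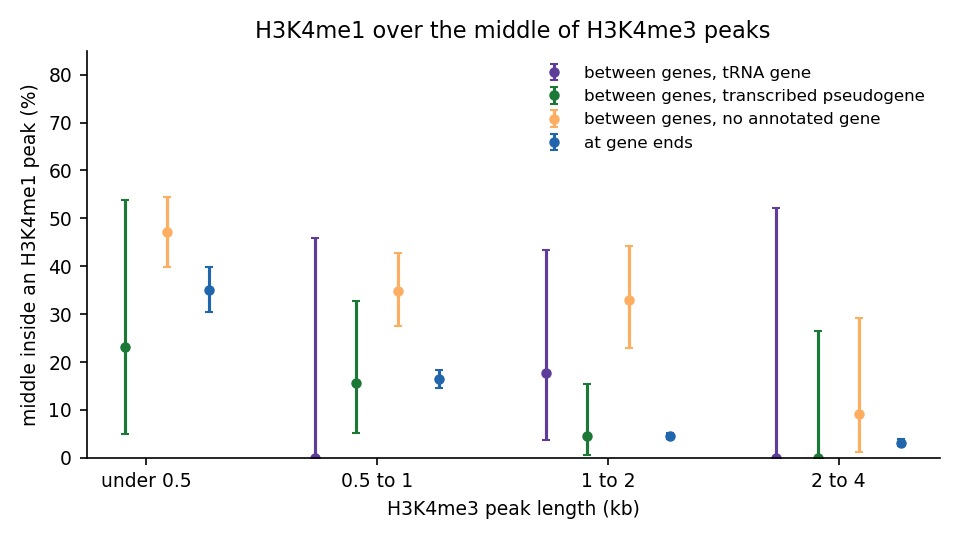
Share of H3K4me3 peaks (%) whose middle lies inside an H3K4me1 peak, by H3K4me3 peak length (kb), with exact 95% intervals, for peaks between genes over tRNA genes (purple), over transcribed pseudogenes (green) and over no annotated gene (orange), and for peaks at gene ends (blue). Classes of fewer than 5 peaks are not drawn. At 1 to 2 kb the share was 32.9% with no annotated gene, against 4.55% at gene ends. Peaks inside gene bodies, at 13.9% in that class, are not drawn.

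A part of the peaks had no H3K4me1 near them. For 144 (23.2%) no H3K4me1 peak lay over the peak or within 2 kb. H3K4me1 lay there for the other 76.8%, against 88.7% of all H3K4me3 peaks on the main chromosomes. At gene ends it was 89.0%, and inside gene bodies 90.0%. The 144 had a median pileup of 11.7 and a median length of 577 bp, against 13.1 and 746.5 bp for the 476 with H3K4me1 there. They were farther from genes, at a median of 13912.5 bp against 9606.5 bp. A gene of another kind lay under 32.6% of them, against 26.8% of all 620. The ranges between the quartiles overlapped for all 3 measures.

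The 454 peaks with no annotated gene under them included some of the strongest. A peak on chromosome 11 (6746035 to 6746456), 19170 bp from the olfactory receptor gene OR2AG2, had a pileup of 36.6 and a fold of 11.2. One on chromosome 20 (50483711 to 50484046), 26337 bp upstream of PTPN1, the gene of a phosphatase that restrains insulin and JAK signalling, had 36.2 and 10.2. Neither overlapped H3K4me1, and both had it on each side within 2 kb.

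H3K4me1 covered the whole of 3 other strong peaks, all of them under 500 bp. A peak of only 189 bp on chromosome 10 (119489688 to 119489876), 9941 bp past RGS10, a regulator of G protein signalling, had a pileup of 33.4 and a fold of 13.7. One of 412 bp on chromosome 2 (30225397 to 30225808), 5726 bp upstream of LBH, had 33.25 and 10.5. One of 264 bp on chromosome 19 (6863300 to 6863563), 5939 bp past VAV1, an exchange factor of T cell receptor signalling, had 32.9 and 13.2. A peak on chromosome 8, 15896 bp from FBXO16, had 32.6, with H3K4me1 on both sides and not over it.

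Peaks of high fold without H3K4me1 over them lay 48158 bp from RBX1, a ubiquitin ligase subunit gene (fold 13.0, chromosome 22, 41021467 to 41022606), and 5015 bp from FLYWCH2 (12.7, chromosome 16, 2904397 to 2904681). Near FLYWCH2 there was no H3K4me1 within 2 kb either. A peak near LOC105371983 on chromosome 18 (fold 11.6) was fully covered by H3K4me1. Among the longest peaks were those over ANAPC1P2 (3631 bp), DND1P1 (3568 bp), RNU6-7 and RNU6-8 (3230 bp), the pseudogene PRKY (3170 bp), the tRNA genes TRG-TCC2-1 and TRH-GTG1-1 (3141 bp), and 1 with no annotated gene 4227 bp from ANXA2R-OT1 (3096 bp), next to the one beside CDKN2C. None of these 7 overlapped H3K4me1, whereas 27 of all 46 peaks between genes of 2000 to 4000 bp did (58.7%). Next in length were the peaks 8990 bp from GRIN1 (2831 bp) and over SUZ12P1 (2828 bp).

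A high background marked a small part of the peaks. A background of 4 or more was found at 42 of the 620 (6.77%, against 4.96% of all H3K4me3 peaks on the main chromosomes). Their median fold was 2.53, against 4.39 for the others. The background was computed from the fold itself, so this contrast in fold is in part built in. The highest values were 10.1 near ZNF823, 8.52 near YWHAZ, 7.63 near GREP1, 7.63 near LOC107986926 and 7.30 near TRPS1, of which those at YWHAZ, LOC107986926 and TRPS1 are on chromosome 8. The 28 peaks on chromosome 8 had a median background of 2.92, a median pileup of 15.0 and a median fold of 3.88, against 1.94, 12.7 and 4.26 for the peaks on other chromosomes.

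Genes of T-ALL and T cell interest were then searched for a peak between genes within 100 kb, over 9 gene lists. Such a peak was near 1852 of 20037 protein-coding genes (9.24%). It was near 5 of 38 T-lineage genes (13.2%), 5 of 20 T-ALL transcription factor oncogenes, 2 of 15 Notch targets, 5 of 24 kinase and cytokine signalling genes (20.8%) and 3 of 24 T-ALL tumour suppressors (12.5%). It was near 2 of 15 B-lineage markers, 1 of 15 myeloid markers, 1 of 20 DNA replication genes and 6 of 20 housekeeping genes (30.0%). With lists this small the shares are a description, and the housekeeping list, which has no tie to T cells, had the highest of the 9.

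Near T-lineage genes, the peak nearest to LCK, the proximal kinase of the T cell receptor, was 10208 bp away over the pseudogene MTMR9LP (pileup 6.50). CD7, a pan-T surface protein gene, had a peak of 2568 bp at 10921 bp (chromosome 17, 82301385 to 82303952) with a pileup of 16.7. RUNX3, TOX and CD4 had one at 57361, 68469 and 70058 bp, with pileups of 11.8, 10.9 and 5.18. All 5 peaks overlapped H3K4me1.

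Among the oncogenes, HOXA9 and HOXA10 shared a peak of 411 bp on chromosome 7 (27160691 to 27161101), 1337 bp from HOXA9, with a pileup of 11.2 and with H3K4me1. TLX1, the homeobox gene known to be rearranged in this line, had one 87967 bp away and 1612 bp from SFXN3 (chromosome 10, 101042853 to 101043333), with a pileup of 17.1, a fold of 7.86 and H3K4me1. NOTCH1 had a weak one at 40846 bp (4.69) and LYL1 one at 59737 bp (13.0, without H3K4me1). Of the Notch targets, HES5 had a peak of 2787 bp at 15523 bp (11.0). IGF1R had one at 94560 bp (11.8) whose nearest gene, at 28040 bp, was LUNAR1, an lncRNA known to be induced by Notch.

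Among the signalling genes, the peak nearest to BCL2L1, an apoptosis inhibitor gene, was 2408 bp away (4.65). SOCS1, an inhibitor of cytokine signalling, had one at 9675 bp over the pseudogene HNRNPCP4 (19.5) and AKT1 one at 19606 bp (14.1). NUP214, part of the fusion known in this line, had one at 21319 bp (11.3, at a fold of only 2.35) and PIM1 one at 67093 bp (5.95). PTPN2, a phosphatase gene lost in some T-ALL, had a peak of 2537 bp at 9318 bp on chromosome 18 (12773624 to 12776160), with a pileup of 18.0, a fold of 8.13 and H3K4me1. BCOR had one at 36476 bp (3.72) and EZH2 the one over RNY5 at 56192 bp. PAX5, the B cell factor, had a peak of 597 bp at 2337 bp on chromosome 9 (37036605 to 37037201), with a pileup of 13.5, a fold of 5.70 and no H3K4me1 over it. IGLL1 had one at 49976 bp (3.87), the myeloid marker LYZ one at 16945 bp (11.1) and LIG1 one at 89558 bp (7.27). Of the housekeeping genes, YWHAZ had one at 7555 bp (18.8, at a fold of only 2.08) and HSP90AB1 one at 8109 bp (7.64). B2M had one at 10826 bp (25.3, over RNF4BP), ACTB one at 25136 bp (6.29) and RPL13A one at 43754 bp (5.22).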

How the data were processed

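H3K4me3, H3K4me1 and input DNA of ALL-SIL cells were sequenced once each. The authors ran MACS2 2.1.0.20150731 in its broad mode with the input as control (q of 0.05 for strong and 0.1 for broad regions), and the alignment names point to STAR, per the file headers. The larger library was scaled down, so pileups stand at the input's depth. The submitters' processing notes name GRCh38. The deposited pileup is a coverage signal, the deposited fold a ratio over the local background, and the deposited significance a −log10 of the p-value and q-value.

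Gene spans came from RefSeq GRCh38.p14 (20037 protein-coding and 18303 lncRNA genes on the main chromosomes). Overlap counted from 1 bp. Distances run edge to edge. Background was (pileup + 1)/fold − 1. Peaks over several gene kinds were placed in the order tRNA, other RNA, antigen receptor locus, transcribed pseudogene, other pseudogene. Named peaks were the 10 highest in pileup, fold and length, the 5 farthest from genes, the 5 of highest background, the 5 longest runs, those over small RNA or receptor genes, the strongest over tRNA genes and pseudogenes, and the nearest to list genes, with some left unnamed. Members and lists were chosen with earlier results of these data known. Placement and overlap were checked on simulated data. Python 3.11.15 and scipy 1.17.1 were used. No genome sequence was used here, so peak sequences and motifs were not analysed. A run of peaks and a gene of the housekeeping list are not reported here.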

Additional observations from a re-analysis of the deposited data

Results flagged for a closer look

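H3K4me3 peaks were also called on 7 unplaced or alternate sequences, which no comparison above uses. There were 16 of them, with pileups from 3.98 to 30.0 (median 9.48) and folds from 2.16 to 5.91, and 4 overlapped H3K4me1. A signal outside the main measurement is what marked them for a closer look, and the input library gave no peak list to set beside them.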

How the results depend on the processing

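No paired analysis was possible because each mark had 1 library and no result comes from a test. The 620 peaks became 1109 when only protein-coding genes kept a peak out and 252 at a −log10 q of at least 10, and stayed within 1.5 times under the other alternatives. The overlap with H3K4me1 (50.3%) was 57.6% when genes of every kind kept a peak out, 31.6% with 50% of the peak covered, 75.2% with a gap of 1 kb, 9.35% when H3K4me1 had to reach 5 in −log10 q and 10.6% when its list was cut to the size of the H3K4me3 list. By length class it was 49.1% under 500 bp, 44.9% from 500 to 1000 bp, 56.8% from 1000 to 2000 bp and 58.7% from 2000 to 4000 bp. The median length (697.5 bp) was 776 bp with protein-coding genes only, 580 bp with genes of every kind and 775 bp at a −log10 q of at least 5. The median pileup was 16.2 and 19.5 at limits of 5 and 10 in −log10 q, a filter that itself keeps high pileups. The median distance was 7535 bp without a window, 15522 bp with one of 5 kb, 18859 bp with protein-coding genes only and 7035 bp with genes of every kind. The share over another gene kind (26.8%) was 21.8% with protein-coding genes only, 31.7% at a −log10 q of at least 10, 31.5% within 1 kb and 8.39% with 50% of the gene covered. Leaving out chromosome 8, or backgrounds of 4 or more, both chosen after seeing the data, moved no value beyond its counting interval. The cause of these shifts was not tested. The depth of 1 library per mark limits what weak peaks show.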
